A study of Homo sapiens with 27 samples.

Results

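Collagen alpha chain genes were followed in 3 human tumour cell lines that had been made to overexpress MAML3, a Mastermind-like coactivator known from Notch signalling. A gene was included when its symbol consisted of COL, a number, A and a number, and 42 of the 23230 gene symbols in the count table did so. By collagen class, 10 of the 42 encode fibrillar chains, 5 basement membrane chains (type IV), 5 chains of type VI beaded filaments, 1 the type VII anchoring fibril chain, 3 short chain network collagens (types VIII and X), 10 chains of the fibril-associated collagens known as FACITs, 4 transmembrane collagens, 2 multiplexins (types XV and XVIII) and 2 other chains. COL4A2 and COL5A2 were not analysed here.

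Collagens are extracellular proteins whose alpha chains wind around each other into a stiff helix before secretion. Fibrillar collagens such as types I, III and V build the fibres of connective tissue, type IV forms the sheet of basement membranes, type VI forms microfilaments near cells, and FACITs sit on the surface of fibres. Epithelial tumour cells usually make basement membrane and transmembrane collagens and little fibrillar collagen, whereas mesenchymal cells are the main source of fibrillar chains. SK-N-SH is known to contain neuroblast-like cells together with flat, substrate-adherent cells of mesenchymal character.

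The SK-N-SH line comes from a neuroblastoma, and QGP-1 and BON-1 are pancreatic neuroendocrine tumour lines. Cells of each line were transfected by lipofection with the pCMV6-AC plasmid, in which a CMV promoter drives the insert, carrying MAML3 without its first exon (dEx1), full-length MAML3 (FL) or no insert (vector); both MAML3 forms had a C-terminal V5 tag. All cells were collected on day 3, and every group, controls included, had gone through transfection. Each of the 9 groups held 3 biological replicates, giving 27 mRNA sequencing libraries. Levels are in CPM, the estimated counts divided by the scaled library size, and n is 3 libraries for each mean ± SD. A gene is called changed when its adjusted p, from edgeR's quasi-likelihood test with Benjamini-Hochberg adjustment over all genes tested, is below 0.05. Fold changes are fitted log2 values of the group named first over the second. Their SE is the absolute log2 value over the square root of the F value of the same test. The p-values describe the spread between these libraries.

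The libraries held totals of 73026244 to 120254457 estimated counts. MAML3 itself lay at 4919 to 15840 CPM in the 6 SK-N-SH libraries labelled with a MAML3 construct and at 16.9 to 30.3 CPM in the SK-N-SH vector libraries, with no overlap in the other lines either (2231 to 8296 against 38.5 to 93.7 CPM in QGP-1, and 2789 to 5369 against 63.0 to 70.6 CPM in BON-1). The defining markers were those of the labelled cell types with 2 exceptions. HAND2 and GATA3 averaged 69.9 ± 8.25 and 62.2 ± 5.78 CPM in SK-N-SH vector libraries, whereas CHGA averaged 811 ± 152 CPM in QGP-1 and 21183 ± 11125 CPM in BON-1 vector libraries. TH was near 0 in SK-N-SH (0.0172 ± 0.0298 CPM), and NEUROD1 was listed at 0 in the QGP-1 vector libraries. Some libraries stood apart from their group. In SK-N-SH, vector replicate 3 lay at -40.0 on the first principal component, next to the dEx1 libraries (-84.7 to -43.5), while vector replicates 1 and 2 lay at 28.3 and 28.5 and the FL libraries at 37.9 to 70.9; that component carried 40.7% of the variance. In BON-1, vector replicate 1 lay at -107 and the other 8 libraries at -0.115 to 27.9. In QGP-1, vector replicate 2 and the replicate 3 libraries of all groups lay at -51.0 to -41.9 and the other 5 libraries at 23.2 to 44.5. Vector libraries are given one by one where a collagen level rests on them, and refits without a library are named with their values.

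**Figure D1:**
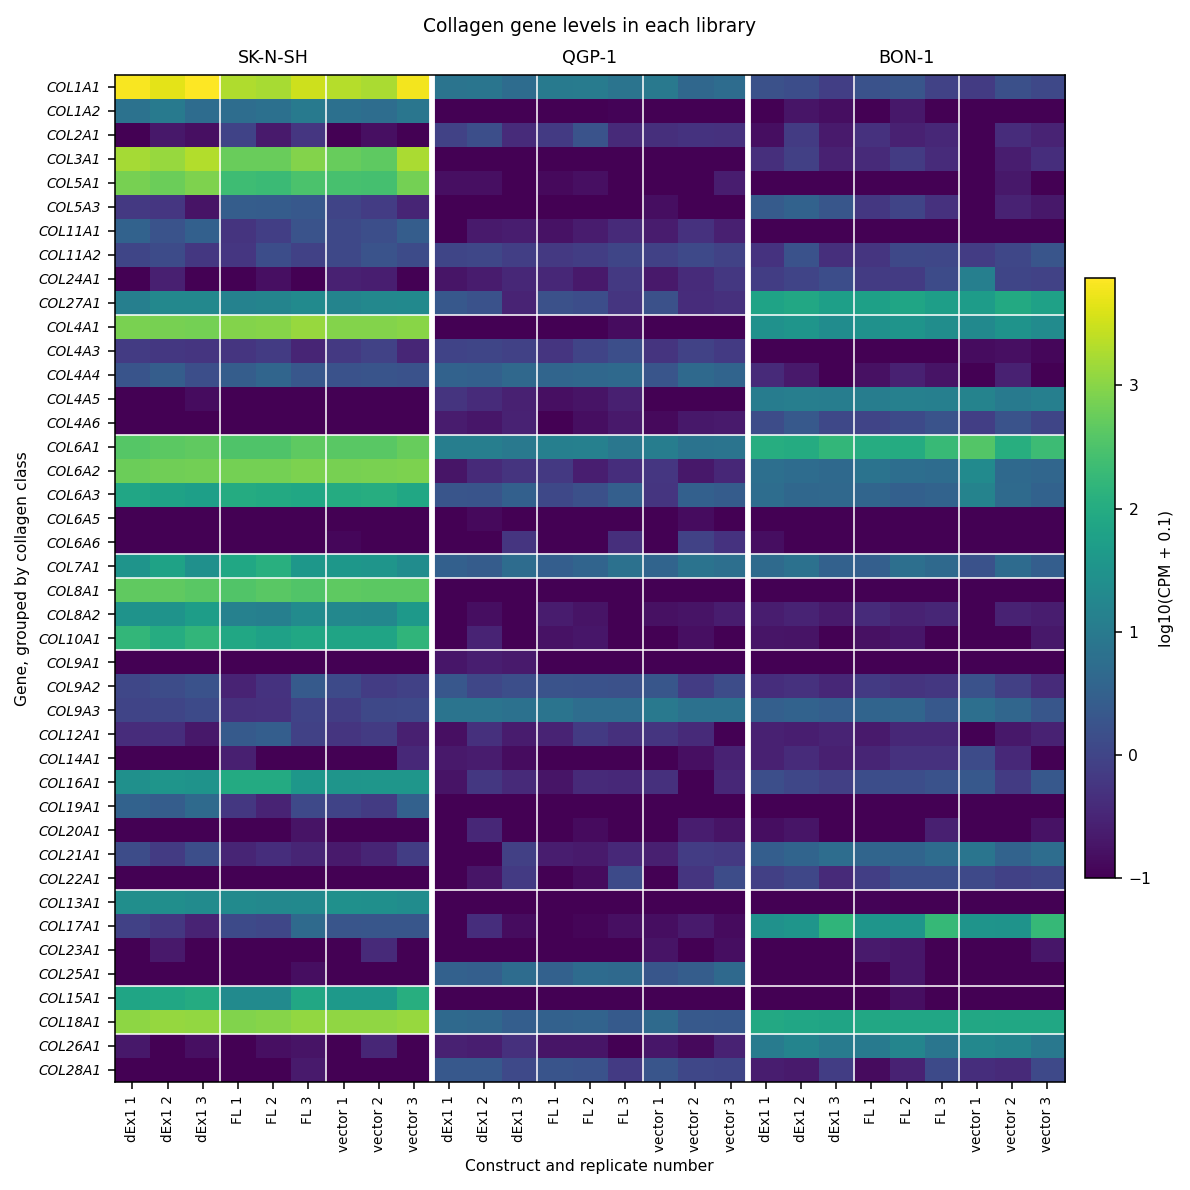
Levels of the 42 collagen genes in all 27 libraries, coloured by log10(CPM + 0.1), with genes grouped by class and libraries by line, construct and replicate number. SK-N-SH libraries hold the brightest rows, including COL1A1, COL3A1, COL4A1, COL6A2 and COL18A1, whereas no collagen gene averaged 10 CPM or more in QGP-1 vector libraries.

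Without a MAML3 construct, in the transfected vector libraries, the 3 lines differed widely in the collagen genes they used. Each line had its own culture history and its own medium, so line and medium cannot be told apart in these comparisons. In vector libraries the 42 genes together made up 6992, 6635 and 13043 CPM in SK-N-SH, 51.0, 44.9 and 46.6 CPM in QGP-1 and 652, 406 and 616 CPM in BON-1, so SK-N-SH was highest with or without its vector replicate 3. In SK-N-SH, 16 genes averaged at least 10 CPM and 8 at least 100 CPM; in QGP-1 none reached 10 CPM; in BON-1, 7 reached 10 CPM and 1, COL6A1, reached 100 CPM. Genes listed at 0 in every vector library numbered 8 in SK-N-SH, 9 in QGP-1 and 10 in BON-1. Fibrillar chains held 42.5, 38.5 and 64.8% of the collagen CPM in SK-N-SH replicates 1, 2 and 3, 23.5, 14.9 and 16.1% in QGP-1 and 9.80, 23.7 and 10.8% in BON-1.

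Per kilobase of transcript, COL1A1, the main chain of type I collagen, stood first in SK-N-SH vector libraries at 557 ± 392 CPM per kb. COL18A1, the source of endostatin, and COL6A2 followed at 224 ± 20.1 and 224 ± 7.17 CPM per kb, and their libraries overlapped, as did those of COL3A1 (167 ± 132) and COL4A1 (146 ± 6.60 CPM per kb). COL6A1 (111 ± 15.5), COL8A1 (80.1 ± 2.00), COL5A1 (49.4 ± 29.0) and COL10A1 (29.7 ± 14.9 CPM per kb) came next; COL8A1 overlapped COL5A1, and COL5A1 overlapped COL10A1. The SDs of COL1A1, COL3A1 and COL5A1 were wide because of vector replicate 3: COL1A1 was at 2124, 1794 and 5962 CPM in replicates 1, 2 and 3. In BON-1 the order was led by COL6A1 (55 ± 29.5), COL18A1 (14.9 ± 0.236), COL17A1 (14.8 ± 15.7) and COL27A1 (8.72 ± 2.77 CPM per kb). COL6A1 did not overlap COL18A1, but its lowest library (27.3) lay below the highest of COL17A1 (32.9 CPM per kb). COL18A1 overlapped COL17A1, and COL17A1 overlapped COL27A1, which lay above the gene after it. In QGP-1 the leading genes were COL9A3, a chain of the cartilage FACIT type IX, at 2.97 ± 0.607 and COL6A1 at 2.06 ± 0.579 CPM per kb, which overlapped each other and lay above COL1A1 and the rest.

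The alpha chains of one collagen type were unevenly expressed. Type I collagen is normally built from 2 COL1A1 chains and 1 COL1A2 chain, and in SK-N-SH vector libraries COL1A2 was at 6.23, 5.41 and 7.99 CPM, and the COL1A1 to COL1A2 ratio per kb was 292, 284 and 639.8. In SK-N-SH FL and dEx1 libraries COL1A2 stayed between 5.26 and 9.97 CPM. For type VI, COL6A1 was at 0.455 to 0.556 of COL6A2 per kb in SK-N-SH vector libraries, and COL6A3, the largest type VI chain, was far lower, with a COL6A2 to COL6A3 ratio of 21.5 to 31.2. In BON-1 the type VI order was turned round, with COL6A1 at 361, 115 and 218 CPM and COL6A2 at 21.5, 4.53 and 3.97 CPM. The type IV pairs, which lie head to head in the genome, split by line. COL4A1 was at 928, 935 and 1006 CPM in SK-N-SH, listed at 0 in QGP-1 and at 20.4, 31.8 and 22.7 CPM in BON-1. COL4A3 and COL4A4, chains of the kidney filter's basement membrane, averaged 0.537 ± 0.295 and 1.63 ± 0.0737 CPM in SK-N-SH, 0.612 ± 0.190 and 3.31 ± 1.36 CPM in QGP-1, and 0.0431 ± 0.0189 and 0.0614 ± 0.106 CPM in BON-1. COL4A5 and COL4A6 averaged 12.4 ± 2.60 and 1.10 ± 0.479 CPM in BON-1, while in SK-N-SH both were listed at 0 in all vector libraries.

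**Figure D2:**
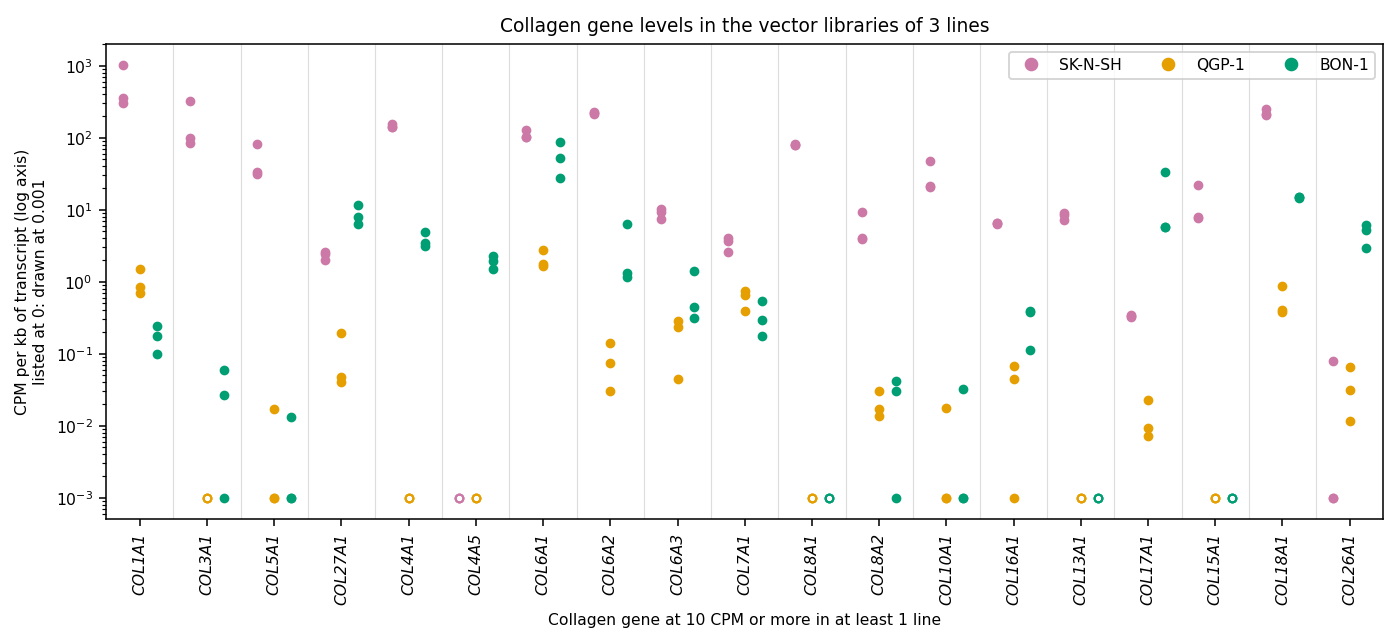
Levels of the 19 collagen genes at 10 CPM or more on average in the vector libraries of at least 1 line, as CPM per kb of transcript on a log axis, 1 point per library; libraries listed at 0 are drawn at 0.001, as open points where a whole group is at 0. COL8A1, COL13A1 and COL15A1 are seen in SK-N-SH alone, COL4A5 in BON-1 alone, and COL1A1, COL6A1, COL7A1 and COL18A1 in all 3 lines.

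In SK-N-SH against BON-1 vector libraries, 31 of 40 collagen genes tested were called, 21 higher and 10 lower in SK-N-SH; of all genes tested 60.6% were called, 29.7% higher and 30.9% lower. Against QGP-1, 27 of 40 were called, 21 higher and 6 lower in SK-N-SH, again beside 60.6% of all genes, 30.6% higher and 30% lower. The median collagen fold change on the log2 scale was 2.58 against BON-1, where the median of all genes was -0.02, and 2.67 against QGP-1, where it was 0.00. The vector libraries did not overlap in 31 genes against BON-1 and in 27 against QGP-1, beside 61.5% and 64% of all genes. With genes at 0 in a whole group set to their bound, the medians were 2.24 against BON-1 and 2.67 against QGP-1. Where a whole group was at 0, its level was replaced by a floor of 15 counts in each library. That is 3 fragments, each assumed to give 5 counts. The fold printed with "at least" is the mean of the higher group over that floor. It allows for counting error in the group at 0 and not for the spread of the higher group. COL8A1, a network collagen of vessel walls and cornea, was at 455, 438 and 434 CPM in SK-N-SH and listed at 0 in every QGP-1 and BON-1 library, so it was at least 2753-fold higher than in QGP-1 and at least 2278-fold higher than in BON-1. COL15A1 averaged 65.5 ± 42.2 CPM and the transmembrane COL13A1 25.9 ± 2.69 CPM in SK-N-SH, and vector libraries of both other lines were at 0, which makes COL15A1 at least 338-fold and COL13A1 at least 133-fold higher than in BON-1. COL3A1 was at least 5716-fold and COL4A1 at least 5956-fold higher than in QGP-1. COL1A1 was at 3293 ± 2317 CPM in SK-N-SH, 6.09 ± 2.59 CPM in QGP-1 and 1.02 ± 0.423 CPM in BON-1 (log2 fold change 11.64, SE 0.65, adjusted p = 2.68e-12 against BON-1). COL5A1, which regulates fibre diameter, averaged 417 ± 245 CPM in SK-N-SH and 0.0368 ± 0.0638 CPM in BON-1. Without SK-N-SH vector replicate 3, COL1A1 was still higher than in BON-1 by edgeR's test (log2 fold change 10.90, SE 0.53, adjusted p = 1.69e-12), and so were COL3A1 (log2 fold change 11.55, SE 0.76, adjusted p = 7.31e-09) and COL5A1 (log2 fold change 12.77, SE 0.88, adjusted p = 2.8e-09). In BON-1 vector libraries COL3A1 (0.159 CPM) and COL5A1 averaged under the floor of 0.194 CPM, so the sizes of their fitted changes are not resolved. Without the same replicate the fold over the floor was 212 for COL15A1 against BON-1 and 3111 for COL3A1 against QGP-1.

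The genes lower in SK-N-SH than in BON-1 included COL4A5 and COL4A6, whose SK-N-SH vector libraries were at 0 (at least 74.4-fold and at least 6.57-fold lower), and COL26A1, at 0.0788 ± 0.136 CPM in SK-N-SH and 14.4 ± 5.05 CPM in BON-1. COL17A1, the hemidesmosome collagen of epithelial cells, averaged 1.87 ± 0.0446 CPM in SK-N-SH and 83.0 ± 88.0 CPM in BON-1 (log2 fold change -5.47, SE 1.03, adjusted p = 0.000101), although BON-1 libraries differed widely among themselves in this gene. COL22A1 and COL28A1 were lower too, at 0 in SK-N-SH and with averages of 0.914 and 0.571 CPM in BON-1. Against QGP-1, COL25A1, a transmembrane collagen of neurons, was at 0 in SK-N-SH and 1.95, 2.69 and 4.59 CPM in QGP-1, at least 18.4-fold lower in SK-N-SH. COL9A3 averaged 0.935 ± 0.231 CPM in SK-N-SH, 7.41 ± 1.52 CPM in QGP-1 and 3.92 ± 1.97 CPM in BON-1, and was lower in SK-N-SH than in both. COL28A1, COL22A1, COL2A1 and COL4A6 were the other 4 lower genes, all under 2 CPM in QGP-1 vector libraries. COL4A6 was at 0 in SK-N-SH, and its QGP-1 mean of 0.0856 CPM lay under the floor of 0.167 CPM, so no fold is given.

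Between the pancreatic lines, 20 of 40 genes were called in QGP-1 against BON-1 vector libraries, 6 higher and 14 lower in QGP-1, beside 51.4% of all genes, 23.7% higher and 27.7% lower. The higher 6 were COL25A1, COL11A1, COL4A3, COL4A4, COL1A1 and COL9A3. COL11A1 was at 0 in BON-1 and at 0.136, 0.402 and 0.173 CPM in QGP-1, a mean only 1.22-fold the floor of 0.194 CPM. COL1A1 was at 9.03, 4.16 and 5.08 CPM in QGP-1 and 0.590, 1.44 and 1.04 CPM in BON-1 (log2 fold change 2.57, SE 0.46, adjusted p = 8.1e-05). Among the lower 14, COL4A1 and COL4A5 were at 0 in QGP-1 (at least 156-fold and at least 77.5-fold lower), and COL17A1 averaged 0.0731 ± 0.0465 CPM in QGP-1 and 83.0 ± 88.0 CPM in BON-1. COL26A1 (log2 fold change -7.03, SE 1.10, adjusted p = 1.46e-05) and COL27A1, a fibrillar chain of cartilage (log2 fold change -6.51, SE 0.69, adjusted p = 7.26e-08), were lower as well. COL26A1 averaged 0.107 CPM in QGP-1, under the floor of 0.161 CPM, so the size of its fitted change is not resolved. COL3A1 was called lower, but its mean of 0.159 CPM in BON-1 lay under the floor, so no fold is given. COL18A1 was at 4.65, 2.17 and 2.06 CPM in QGP-1 and 82.2, 79.7 and 80.4 CPM in BON-1, without overlap.

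Genes that modify, trim and cross-link collagen chains differed between the lines as well. Of 28 such genes, 19 were higher and 3 lower in SK-N-SH than in BON-1, 21 higher and 5 lower in SK-N-SH than in QGP-1, and 8 higher and 10 lower in QGP-1 than in BON-1, where 60.6%, 60.6% and 51.4% of all genes tested were called. LOX, which starts collagen cross-links, averaged 99.95 ± 26.4 CPM in SK-N-SH, 3.39 ± 1.42 CPM in QGP-1 and 0.232 ± 0.0770 CPM in BON-1. PCOLCE, which speeds the trimming of fibrillar procollagen, averaged 440.0 ± 84.3 CPM in SK-N-SH, 8.22 ± 1.59 CPM in QGP-1 and 24.7 ± 10.6 CPM in BON-1 (log2 fold change 4.15, SE 0.30, adjusted p = 1.03e-10 for SK-N-SH against BON-1). SERPINH1, the collagen chaperone HSP47, averaged 363 ± 20.5 CPM in SK-N-SH, 85.2 ± 30.2 CPM in QGP-1 and 150.4 ± 30.6 CPM in BON-1. PLOD2, the lysyl hydroxylase of collagen ends, was lowest in SK-N-SH, at 0.0793 ± 0.137 CPM in SK-N-SH, 16.8 ± 3.96 CPM in QGP-1 and 67.1 ± 12.3 CPM in BON-1 (log2 fold change -9.63, SE 0.71, adjusted p = 1.63e-10 against BON-1). Its SK-N-SH mean lay under the floor of 0.167 CPM, so the size of this fitted change is not resolved. Of 6 collagen receptor genes, 5 were higher and 1, DDR1, lower in SK-N-SH than in either other line, beside the same 60.6% of all genes in each. DDR2, the receptor for fibrillar collagen, averaged 212 ± 36.5 CPM in SK-N-SH, 5.10 ± 3.36 CPM in QGP-1 and 2.66 ± 0.247 CPM in BON-1, whereas DDR1 averaged 105 ± 48.6 CPM in SK-N-SH, 219.8 ± 11.4 CPM in QGP-1 and 231 ± 116 CPM in BON-1.

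Of the 9 comparisons between constructs, only dEx1 against FL in SK-N-SH called any collagen gene. There, 9 of 30 collagen genes tested passed, 4 higher and 5 lower with dEx1, and 22% of all genes tested passed (3226 of 14674, 10.5% higher and 11.5% lower). COL5A1, COL1A1, COL19A1 and COL8A1 were higher, and COL16A1, COL12A1, COL5A3, COL4A1 and COL17A1 were lower. The median log2 fold change was 0.25 over the 30 collagen genes and 0.00 over all genes. In 18 of the 30 genes the 3 dEx1 libraries did not overlap the 3 FL libraries (10 higher and 8 lower), beside 43.4% of all genes. The calls depended on single libraries. Without dEx1 replicate 1, 2 or 3 the count was 0, 3 or 1, beside 13.4%, 14.8% or 13.1% of all genes. Without FL replicate 1, 2 or 3 it was 1, 3 or 13, beside 12.3%, 13.1% or 19.8%. Without vector replicate 1, 2 or 3, which enter only through the shared spread, it was 6, 7 or 13, beside 18.5%, 19.1% or 26.7%. With all 27 libraries in 1 fit only COL1A1 was called, beside 13.7% of all genes, and with DESeq2 15 genes were, beside 31% of all genes.

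Type I collagen gave the largest difference in level. COL1A1 (chr17:48261462-48278993 in hg19, minus strand) was at 6768, 4683 and 7397 CPM in dEx1 libraries, 1922, 1683 and 3121 CPM in FL libraries and 2124, 1794 and 5962 CPM in vector libraries. All dEx1 libraries were above all FL libraries (log2 fold change 1.49, SE 0.46, adjusted p = 0.0484). COL5A1 (chr9:137533649-137736689, plus strand), whose product starts type I fibres, was at 737, 591 and 835 CPM in dEx1 libraries, 223, 207 and 307 CPM in FL libraries and 283, 269 and 700.2 CPM in vector libraries, and again the dEx1 and FL libraries did not overlap (log2 fold change 1.56, SE 0.37, adjusted p = 0.0179). COL3A1 (chr2:189839099-189877472, plus strand), the chain of type III fibres, was at 1603, 1333 and 2031 CPM in dEx1 libraries, 579, 583 and 914 CPM in FL libraries and 537, 462 and 1754 CPM in vector libraries; its groups did not overlap but it missed the threshold (log2 fold change 1.26, SE 0.48, adjusted p = 0.0942). In all 3 genes vector replicate 3 was close to the dEx1 libraries and vector replicates 1 and 2 close to the FL libraries. Replicate 3 was also the highest library within dEx1 and within FL for each of the 3 genes, by a smaller ratio than in vector. The ratio of COL3A1 to COL1A1 per kb stayed between 0.255 and 0.373 in all 9 SK-N-SH libraries, and that of COL5A1 to COL1A1 between 0.0688 and 0.105. COL1A2, the partner chain, overlapped between the groups, at 6.78, 9.68 and 5.26 CPM in dEx1 libraries, 5.37, 6.23 and 9.97 CPM in FL libraries and 6.23, 5.41 and 7.99 CPM in vector libraries.

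**Figure D3:**
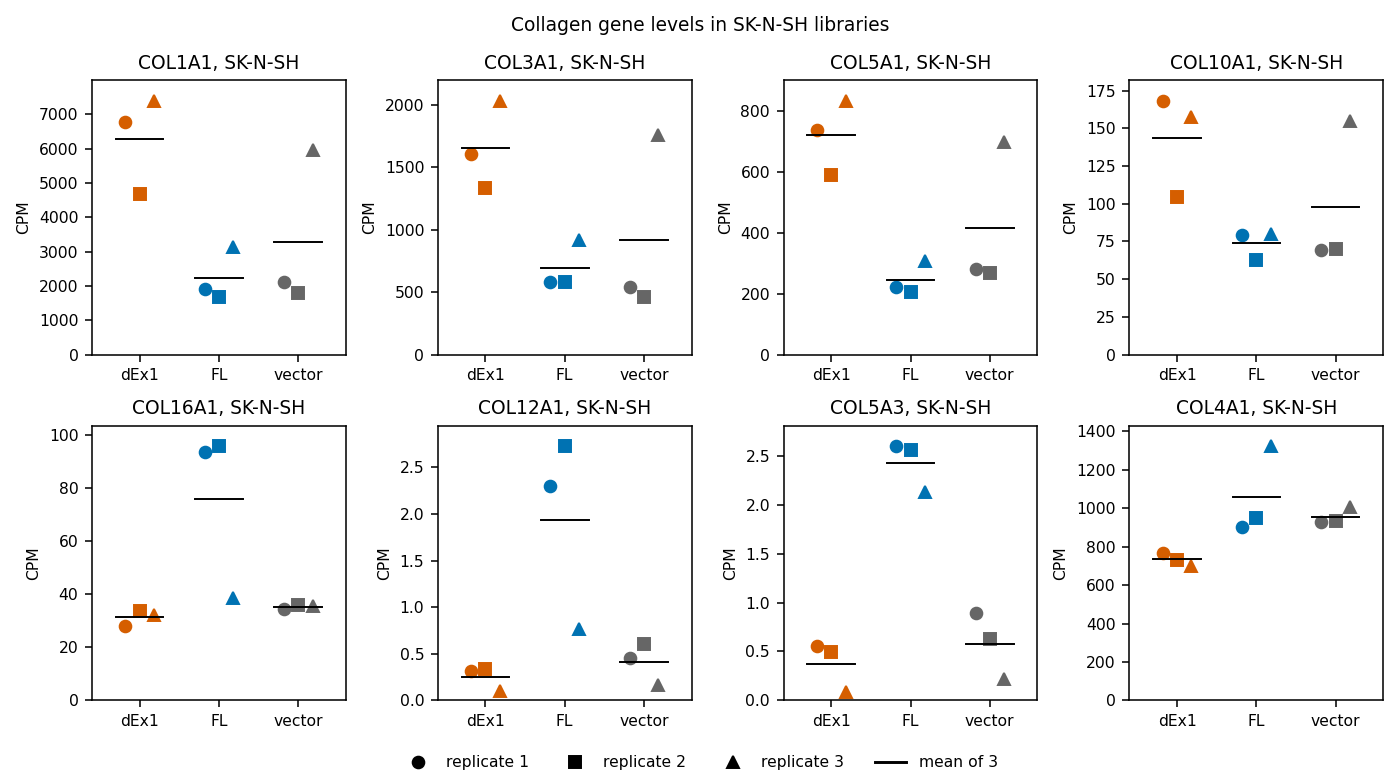
CPM of 8 collagen genes in each SK-N-SH library by construct; point shape gives the replicate number and the black bar the mean of 3. In the upper row dEx1 libraries and vector replicate 3 are high; in the lower row COL16A1, COL12A1 and COL5A3 are highest in FL libraries and COL4A1 is lowest in dEx1 libraries.

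Other members higher with dEx1 had lower levels. COL19A1 (chr6:70576448-70922171, plus strand), a FACIT, was at 3.34, 2.60 and 4.76 CPM in dEx1 libraries, 0.512, 0.202 and 1.07 CPM in FL libraries and 0.848, 0.614 and 3.14 CPM in vector libraries (log2 fold change 2.58, SE 0.76, adjusted p = 0.0406). COL8A1 (chr3:99357319-99518070, plus strand) differed little but evenly, at 476, 480.3 and 423 CPM in dEx1 libraries, 354, 413 and 346 CPM in FL libraries and 455, 438 and 434 CPM in vector libraries (log2 fold change 0.32, SE 0.09, adjusted p = 0.0415). COL8A2, its partner chain, was just outside the threshold (adjusted p = 0.0528) with 31.4, 31.5 and 51.1 CPM in dEx1 libraries, 13.4, 12.6 and 22.5 CPM in FL libraries and 18.7, 18.2 and 42.8 CPM in vector libraries. COL10A1, the collagen of growth-plate cartilage, did not overlap between dEx1 and FL either, at 168, 105 and 158 CPM in dEx1 libraries, 79.4, 62.4 and 79.9 CPM in FL libraries and 69.1, 70.2 and 155 CPM in vector libraries, and had an adjusted p of 0.0651 in edgeR's test. COL15A1 showed overlap, at 72.2, 78.8 and 96.8 CPM in dEx1 libraries, 21.6, 21.4 and 84.6 CPM in FL libraries and 40.5, 41.8 and 114 CPM in vector libraries. All 3 short chain genes, 7 of 10 fibrillar genes and both multiplexin genes had positive fitted changes; of these 3 classes together, COL5A1, COL1A1 and COL8A1 passed upward and COL5A3 passed downward.

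The genes lower with dEx1 were genes high in FL libraries or low in dEx1 libraries. COL16A1 (chr1:32117864-32169920, minus strand), a FACIT, was at 28.2, 33.8 and 32.3 CPM in dEx1 libraries, 93.8, 95.8 and 38.4 CPM in FL libraries and 34.4, 36.0 and 35.6 CPM in vector libraries; the lowest FL value, of replicate 3, was just above the highest vector value (log2 fold change -1.27, SE 0.29, adjusted p = 0.0164). COL12A1 (chr6:75794042-75915983, minus strand), a FACIT of tension-bearing tissue, was at 0.312, 0.333 and 0.105 CPM in dEx1 libraries, 2.30, 2.72 and 0.763 CPM in FL libraries and 0.455, 0.603 and 0.169 CPM in vector libraries (log2 fold change -2.93, SE 0.69, adjusted p = 0.0182). COL5A3 (chr19:10070237-10121180, minus strand), the rarest type V chain, was at 0.552, 0.494 and 0.0818 CPM in dEx1 libraries, 2.60, 2.56 and 2.13 CPM in FL libraries and 0.889, 0.626 and 0.214 CPM in vector libraries (log2 fold change -2.68, SE 0.70, adjusted p = 0.0273), so within type V collagen COL5A1 was higher and COL5A3 lower with dEx1. COL4A1 (chr13:110801310-110959504, minus strand) was at 769, 732 and 700.1 CPM in dEx1 libraries, 904, 949 and 1322 CPM in FL libraries and 928, 935 and 1006 CPM in vector libraries, with every dEx1 library below every FL and vector library (log2 fold change -0.52, SE 0.14, adjusted p = 0.0323). COL17A1 (chr10:105791044-105845638, minus strand) was at 0.792, 0.504 and 0.210 CPM in dEx1 libraries, 1.14, 1.01 and 4.80 CPM in FL libraries and 1.83, 1.87 and 1.92 CPM in vector libraries; FL replicate 3 alone was above the vector libraries (log2 fold change -2.20, SE 0.68, adjusted p = 0.0495). Without that library the COL17A1 change missed the threshold (log2 fold change -1.10, SE 0.49, adjusted p = 0.155). COL7A1, the anchoring fibril chain, was at 33.4, 63.0 and 28.1 CPM in dEx1 libraries, 79.8, 119.6 and 37.9 CPM in FL libraries and 37.6, 33.9 and 23.6 CPM in vector libraries and missed the threshold (adjusted p = 0.159). COL12A1, COL5A3 and COL17A1 stayed under 5 CPM in every SK-N-SH library, so their fold changes rest on low counts.

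The other collagen genes of SK-N-SH changed less or lay lower. COL18A1 was at 1098, 1258 and 1202 CPM in dEx1 libraries, 889.7, 982 and 1190.3 CPM in FL libraries and 1134, 1168 and 1336 CPM in vector libraries. COL6A1 was at 390.2, 441 and 477 CPM in dEx1 libraries, 337, 340.0 and 466 CPM in FL libraries and 426, 428 and 540.0 CPM in vector libraries, and COL13A1 at 25.8, 25.7 and 22.5 CPM in dEx1 libraries, 21.1, 18.6 and 20.2 CPM in FL libraries and 28.2, 26.5 and 22.9 CPM in vector libraries; in none of these did dEx1 against FL pass. COL27A1 was at 12.7, 18.7 and 18.4 CPM in dEx1 libraries, 14.1, 15.5 and 20.9 CPM in FL libraries and 15.9, 19.0 and 20.3 CPM in vector libraries, with overlap of all groups. Below 5 CPM, COL11A1, the type XI chain of cartilage fibres, was at 3.23, 1.63 and 2.96 CPM in dEx1 libraries, 0.448, 0.706 and 1.69 CPM in FL libraries and 1.05, 1.37 and 2.62 CPM in vector libraries, and COL21A1, a FACIT, at 1.26, 0.612 and 1.37 CPM in dEx1 libraries, 0.217, 0.336 and 0.214 CPM in FL libraries and 0.124, 0.213 and 0.666 CPM in vector libraries. COL2A1, the chain of cartilage fibres, was above 0.1 CPM in every FL library (0.870, 0.123 and 0.499 CPM) and at 0, 0.107 and 0.0584 CPM in dEx1 and 0, 0.0591 and 0 CPM in vector libraries. COL4A3 and COL4A4 overlapped between dEx1 and FL, at 1.74, 2.61 and 1.36 CPM in dEx1 and 2.65, 3.77 and 2.02 CPM in FL libraries for COL4A4. In SK-N-SH 12 of the 42 genes did not pass the filter on low counts: COL4A6, COL6A5, COL9A1 and COL22A1 were at 0 in all 9 libraries, and the other 8, COL4A5, COL6A6, COL14A1, COL20A1, COL23A1, COL25A1, COL26A1 and COL28A1, did not exceed 0.284 CPM in any. In QGP-1 16 genes and in BON-1 15 genes did not pass, none above 0.333 CPM in QGP-1 or 0.163 CPM in BON-1.

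**Figure D4:**
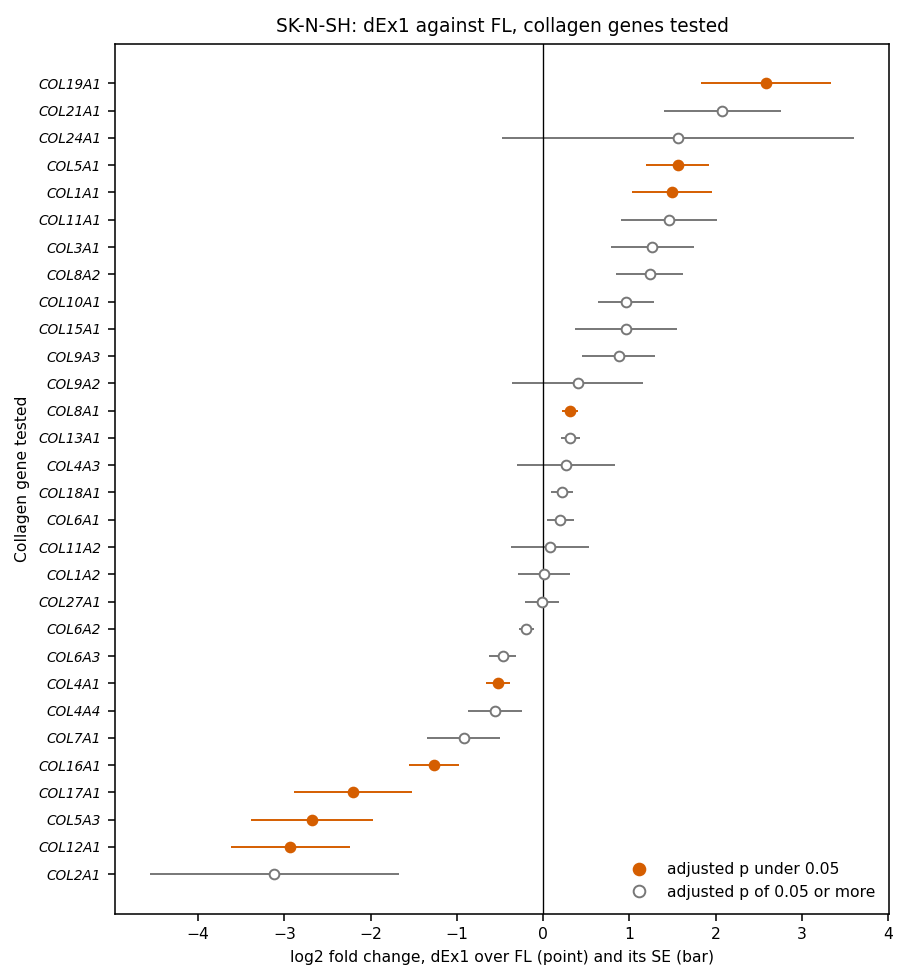
Fitted log2 fold change of dEx1 over FL in SK-N-SH for the 30 collagen genes tested, with bars of 1 SE; filled points passed an adjusted p of 0.05. The called genes run from COL12A1 at -2.93 to COL19A1 at 2.58.

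MAML3 acts with the DNA-binding protein RBPJ, so the stretch before the start of the called genes was read for the RBPJ core TGGGAA and for the CCAAT box, a common promoter element known from collagen genes, each on both strands. RefSeq promoter sequences (build GRCh38.p14) were at hand for 31 of the 42 collagen genes and 7 of the 9 called ones. The 250 bases before the start in that source were used, and the positions given are hg19 positions of an exact match. That start can differ from the end of the hg19 gene span given above. The stretch of COL16A1 lies wholly and that of COL12A1 mostly inside the gene span. The stretches of COL5A3 and COL5A1 lie directly before it. The core, TGGGAA or TTCCCA on the other strand, occurred in 4 of the 31 (COL12A1, COL5A3, COL7A1 and COL13A1) and in 20.8% of all 35116 promoters in the reference table. The CCAAT box, CCAAT or ATTGG, occurred in 8 of the 31 and in 32.0% of all promoters. Shown are the 2 called genes with a core match, COL12A1 and COL5A3, both lower with dEx1 than with FL, beside COL16A1, lower as well, and COL5A1, higher, which have neither motif. Capitals mark the RBPJ core and the CCAAT box, and all are written 5′ to 3′ on the gene's strand. A match here is a description of letters only.
COL12A1 (chr6:75915770-75916019, minus strand): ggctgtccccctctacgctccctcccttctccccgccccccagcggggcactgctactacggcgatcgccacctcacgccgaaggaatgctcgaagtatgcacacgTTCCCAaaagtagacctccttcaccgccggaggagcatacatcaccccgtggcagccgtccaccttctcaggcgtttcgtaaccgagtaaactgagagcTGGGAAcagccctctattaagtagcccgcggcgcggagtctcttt
COL5A3 (chr19:10121181-10121430, minus strand): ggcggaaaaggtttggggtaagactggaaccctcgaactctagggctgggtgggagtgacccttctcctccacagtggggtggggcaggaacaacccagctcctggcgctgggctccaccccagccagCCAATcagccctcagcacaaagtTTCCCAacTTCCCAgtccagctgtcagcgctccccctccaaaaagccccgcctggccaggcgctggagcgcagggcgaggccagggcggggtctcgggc
COL16A1 (chr1:32169619-32169868, minus strand): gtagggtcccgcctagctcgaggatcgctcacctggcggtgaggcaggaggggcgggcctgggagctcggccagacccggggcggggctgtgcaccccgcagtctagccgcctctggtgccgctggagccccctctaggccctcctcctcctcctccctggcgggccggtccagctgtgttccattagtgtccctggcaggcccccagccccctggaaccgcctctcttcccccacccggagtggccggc
COL5A1 (chr9:137533399-137533648, plus strand): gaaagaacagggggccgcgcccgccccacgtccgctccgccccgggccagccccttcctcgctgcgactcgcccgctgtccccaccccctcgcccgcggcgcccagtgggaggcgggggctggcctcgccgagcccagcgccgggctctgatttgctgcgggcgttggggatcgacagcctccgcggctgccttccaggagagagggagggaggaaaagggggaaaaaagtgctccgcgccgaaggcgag
COL12A1 and COL5A3 held 2 core matches each, and COL5A3 held 1 CCAAT box.

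Against vector, neither construct called a collagen gene in SK-N-SH. For dEx1 the background was 4.47% of all genes, and 5 of 30 collagen genes (16.7%) had an unadjusted p under 0.05, beside 22.7% of all genes (3328 of 14674). DESeq2 called 3 (COL6A2, COL6A3 and COL17A1, all lower), beside 13.6% of all genes. Those 5 were COL6A3, COL6A2, COL17A1, COL4A1 and COL21A1. COL6A3 was at 74.7, 63.5 and 54.9 CPM in dEx1 libraries, 97.3, 92.5 and 78.6 CPM in FL libraries and 97.9, 109 and 78.0 CPM in vector libraries (log2 fold change -0.56, SE 0.16, adjusted p = 0.0806), and COL6A2 at 605, 644 and 677 CPM in dEx1 libraries, 696, 717 and 799.9 CPM in FL libraries and 747, 770.2 and 796 CPM in vector libraries (log2 fold change -0.26, SE 0.09, adjusted p = 0.134). Both type VI genes had all dEx1 libraries below all vector and all FL libraries. Without vector replicate 3 the count of calls for dEx1 against vector was 7 of 31 tested, beside 17% of all genes (2558 of 15043): COL1A1 (log2 fold change 1.68, SE 0.31, adjusted p = 0.0117), COL3A1 (log2 fold change 1.73, SE 0.26, adjusted p = 0.00658), COL5A1 (log2 fold change 1.39, SE 0.21, adjusted p = 0.00653), COL10A1, COL19A1 and COL21A1 higher and COL6A3 lower, all by edgeR's test. Without FL replicate 3, which enters through the shared spread, 1 gene was called, COL4A1, lower, beside 5.5% of all genes. The refit without vector replicate 3 kept the replicate 3 libraries of dEx1 and FL, so it was not balanced over the replicate numbers. Leaving out the replicate 3 libraries of all 3 groups gave 12 calls of 31, 8 higher and 4 lower, beside 22.1% of all genes (3267 of 14808).

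Marker lists of other cell types were read beside the collagen genes. Of 6 fibroblast markers 4 were in the table used (PDGFRB, THY1, DCN and LUM), all above 1 CPM in SK-N-SH vector libraries and none at 0. Their summed level was 1198, 1066 and 1562 CPM in dEx1 libraries, 620.1, 589.7 and 981 CPM in FL libraries and 743, 508 and 1494 CPM in vector libraries. In dEx1 against FL 2 of the 4 were called, DCN and PDGFRB, both higher. The epithelial list summed to 216, 162 and 284 CPM in dEx1, 120.3, 108 and 158 CPM in FL and 113, 116 and 234 CPM in vector libraries; 1 of its 4 tested genes was called, KRT8, higher. In both lists vector replicate 3 was above vector replicates 1 and 2, and the dEx1 libraries were above the FL libraries of the same sum. The mesenchymal list summed to 9911, 9733 and 10829 CPM in dEx1, 8771, 9107 and 11279.6 CPM in FL and 9386, 9422 and 11835 CPM in vector libraries, and 2 of its 6 genes were called, CD44 and FN1, both lower. The 3 endothelial markers summed to 0.614 to 1.59 CPM and the 3 immune markers to 1.02 to 2.92 CPM over the 9 SK-N-SH libraries. The sympathetic neuroblast list summed to 214, 212 and 172 CPM in dEx1, 134, 168 and 81.5 CPM in FL and 187, 191 and 121 CPM in vector libraries, and 1 of its 5 tested genes was called, HAND2, higher. These shares stand beside the 22% of all genes called. In bulk RNA, more cells of one kind and more RNA per cell cannot be told apart, and the part of either in the collagen differences was not tested.

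With FL against vector in SK-N-SH, no collagen gene passed, beside 1.74% of all genes; 8 of 30 (26.7%) had an unadjusted p under 0.05, beside 15.7% of all genes (2302 of 14674). DESeq2 called 5 (COL16A1, COL7A1, COL12A1 and COL5A3 higher, COL13A1 lower), beside 8.12% of all genes. With their values as given, COL16A1 (log2 fold change 1.10, SE 0.29, adjusted p = 0.106), COL12A1 (log2 fold change 2.23, SE 0.67, adjusted p = 0.148), COL5A3 (log2 fold change 2.07, SE 0.69, adjusted p = 0.184) and COL7A1 (log2 fold change 1.32, SE 0.43, adjusted p = 0.179) each had all FL libraries above all vector libraries. COL13A1 was at 21.1, 18.6 and 20.2 CPM in FL and 28.2, 26.5 and 22.9 CPM in vector libraries, without overlap. Groups that did not overlap numbered 8 of 30 collagen genes for FL and 5 of 30 for dEx1 against vector, beside 21.5% and 26.6% of all genes. Without FL replicate 3, 1 collagen gene was called, COL16A1, beside 2.42% of all genes. The dEx1 and FL comparisons share the vector libraries.

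Summed over the 42 genes, collagen took 12914, 10605 and 14224 CPM in dEx1 libraries, 6343, 6333 and 8876 CPM in FL libraries and 6992, 6635 and 13043 CPM in vector libraries of SK-N-SH. The fibrillar share of that sum was 68.6 ± 5.22% with dEx1, 44 ± 4.96% with FL and 48.6 ± 14.2% with vector, where vector replicates 1, 2 and 3 were at 42.5, 38.5 and 64.8%. The basement membrane share was 5.95 ± 0.999% with dEx1, 14.8 ± 0.404% with FL and 11.7 ± 3.48% with vector. The beaded filament sum was 1142 ± 69.4 CPM with dEx1, 1208 ± 118 CPM with FL and 1331 ± 74.5 CPM with vector. No test was made of these sums.

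Among the 28 collagen assembly genes, 4 passed in dEx1 against FL in SK-N-SH, 2 in each direction, beside 22% of all genes. PCOLCE was at 483, 495 and 575 CPM in dEx1 and 330.2, 334 and 393 CPM in FL libraries (log2 fold change 0.56, SE 0.15, adjusted p = 0.0285), and its relative PCOLCE2 was higher too (log2 fold change 0.93, SE 0.27, adjusted p = 0.0388). BMP1, the proteinase that trims procollagen ends, was at 87.3, 82.4 and 94.0 CPM in dEx1 and 118, 119.8 and 106 CPM in FL libraries (log2 fold change -0.37, SE 0.10, adjusted p = 0.0293). P3H2, which hydroxylates proline mainly in type IV collagen, was at 10.7, 12 and 13.1 CPM in dEx1 and 21.7, 24.8 and 31.3 CPM in FL libraries (log2 fold change -1.11, SE 0.16, adjusted p = 0.00262). Of the 6 receptor genes 1 passed, beside the same 22%: DDR1 was at 112, 132 and 147 CPM in dEx1, 59.4, 64.6 and 72.4 CPM in FL and 78.3, 74.7 and 161 CPM in vector libraries (log2 fold change 1.00, SE 0.28, adjusted p = 0.0349 for dEx1 against FL). No gene of either list passed in the other 8 construct comparisons.

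In BON-1 no collagen gene passed in any of the 3 construct comparisons, where 0.0134% of all genes passed for dEx1 against vector, 0.00671% for FL against vector and 0% for dEx1 against FL. At an unadjusted p under 0.05 the collagen counts were 3, 3 and 1 of 27, beside 2.88%, 3.86% and 1.05% of all genes (429, 576 and 156 of 14903). COL5A3 showed the clearest separation, at 2.45, 3.25 and 1.94 CPM in dEx1 libraries, 0.527, 0.900 and 0.387 CPM in FL libraries and 0, 0.196 and 0.106 CPM in vector libraries. The 3 groups did not overlap. The log2 fold change of dEx1 over vector was 4.60 (SE 0.88, unadjusted p = 0.000546), with an adjusted p of 0.829 by edgeR and 8.69e-07 by DESeq2. The vector mean of 0.101 CPM lay under the floor of 0.194 CPM, so the size of this fitted change is not resolved. The SK-N-SH values of COL5A3 had another order: FL was highest, and dEx1 and vector overlapped. DESeq2 called no collagen gene in the other 2 BON-1 comparisons. Groups that did not overlap numbered 1, 1 and 3 of 27 for dEx1 against vector, FL against vector and dEx1 against FL, beside 8.35%, 8.62% and 5.62% of all genes.

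Other BON-1 genes varied more between libraries than between constructs. COL17A1 was at 28.8, 34.4 and 156 CPM in dEx1, 34.4, 34.0 and 181 CPM in FL and 32.4, 32.0 and 185 CPM in vector replicates 1, 2 and 3, so that replicate 3 of each group was high. COL6A1 was at 110.3, 98.2 and 169 CPM in dEx1, 104, 98.1 and 190.1 CPM in FL and 361, 115 and 218 CPM in vector replicates. Vector replicate 1, the library that stood apart, held the highest COL6A1, COL6A2 (21.5, 4.53 and 3.97 CPM in the vector libraries), COL6A3 (14.7, 4.67 and 3.25 CPM) and COL24A1 (12.6, 0.958 and 0.813 CPM) of the 9 libraries. COL24A1 in the other 8 BON-1 libraries stayed between 0.593 and 1.32 CPM. Without that library the fitted log2 change of COL24A1 for dEx1 over vector was 0.10, against -2.30 with it, and no collagen gene was called either way. Other genes at 10 CPM or more overlapped between the groups: COL4A5 lay between 9.82 and 15 CPM, COL27A1 between 50.1 and 92.1 CPM, and COL18A1 between 70.0 and 86.4 CPM in all 9 libraries.

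**Figure D5:**
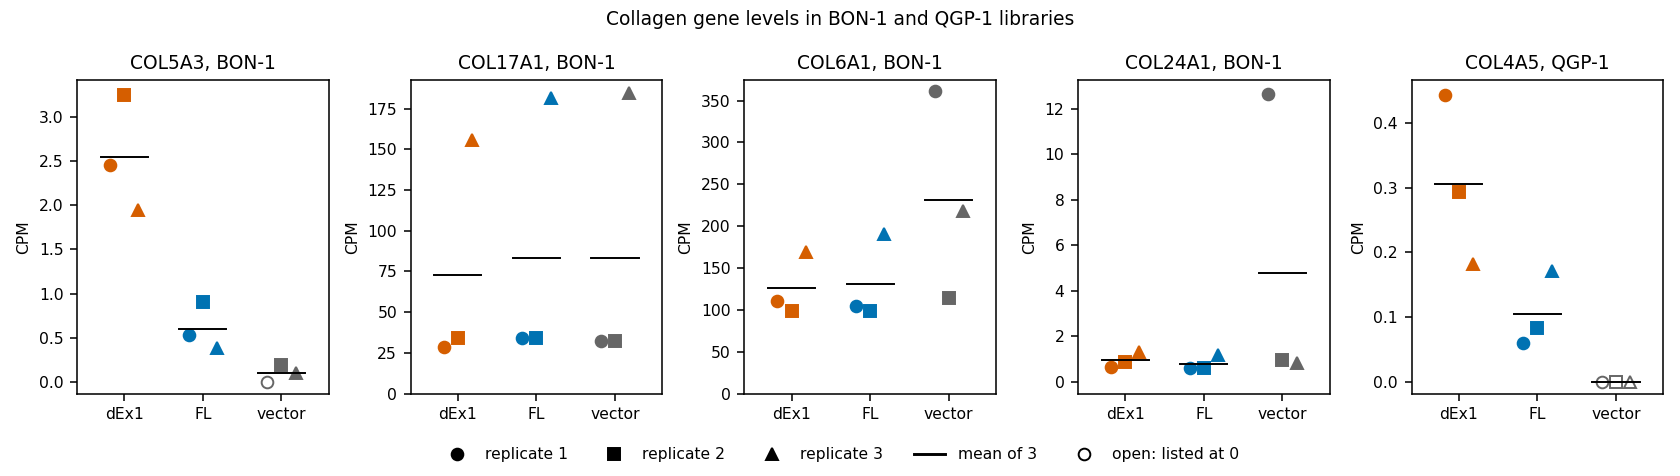
CPM of 4 collagen genes in BON-1 and of COL4A5 in QGP-1 by library; point shape gives the replicate number, the black bar the mean of 3 and open points a value listed at 0. COL5A3 steps down over dEx1, FL and vector, COL17A1 is high in each replicate 3, COL6A1 and COL24A1 are highest in vector replicate 1, and COL4A5 is at 0 in all QGP-1 vector libraries.

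In QGP-1, too, no collagen gene passed, beside 0.0207% of all genes for dEx1 against vector, 0.0275% for FL against vector and 0.0138% for dEx1 against FL; 1, 2 and 1 of 26 had an unadjusted p under 0.05, beside 3.63%, 5.08% and 1.28% of all genes (527, 737 and 186 of 14522). COL4A5 (chrX:107683068-107940775, plus strand) was listed at 0 in all 3 vector libraries and at 0.444, 0.293 and 0.183 CPM in dEx1 and 0.0602, 0.0833 and 0.171 CPM in FL libraries. The dEx1 mean was 1.91-fold the vector floor of 0.161 CPM, but the dEx1 library at 0.183 CPM was close to that floor. The FL mean was under the floor. The adjusted p of COL4A5 was 0.545 by edgeR for dEx1 and 0.511 for FL, and DESeq2 called it in both (0.000318 and 0.0139). COL9A1 was above 0 only in the dEx1 libraries, at 0.0998, 0.162 and 0.125 CPM, a mean under the floor. The leading genes overlapped between groups: COL6A1 was at 11.9, 11.7 and 9.12 CPM in dEx1, 12.7, 13.2 and 8.57 CPM in FL and 11.4, 7.01 and 7.49 CPM in vector libraries, and COL9A3 at 7.33, 7.49 and 6.36 CPM in dEx1, 7.40, 5.45 and 5.50 CPM in FL and 9.16, 6.50 and 6.57 CPM in vector libraries. COL25A1, the collagen that marked QGP-1, was at 3.15, 2.88 and 5.07 CPM in dEx1, 3.20, 4.86 and 4.54 CPM in FL and 1.95, 2.69 and 4.59 CPM in vector libraries. Groups that did not overlap numbered 1, 1 and 3 of 26 for dEx1 against vector, FL against vector and dEx1 against FL, beside 8.92%, 11% and 4.48% of all genes.

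A construct effect seen in one line and not in another is a difference between lines only if the 2 effects differ. The dEx1 effect in SK-N-SH was set against that in BON-1 and in QGP-1 in 1 model of all 27 libraries, and so was the FL effect, and 0 of 40 collagen genes passed in any of these 4 contrasts by edgeR. The background was 0.332% and 0.521% of all genes for dEx1 and 0.284% and 0.16% for FL. At an unadjusted p under 0.05, the counts were 5 and 1 of 40 collagen genes for dEx1, beside 10.9% and 10.3% of all genes, and 3 and 3 of 40 for FL, beside 9.38% and 8.64%. DESeq2 called COL5A3, with a smaller dEx1 effect in SK-N-SH than in BON-1, and no gene in the other 3 contrasts. The smallest adjusted p, 0.0702, was that of COL4A3, whose BON-1 vector libraries, at 0.0443, 0.0614 and 0.0236 CPM, were under the floor and whose BON-1 dEx1 libraries were at 0. COL1A1, which had the largest CPM difference between dEx1 and FL in SK-N-SH, was at 7.44, 7.56 and 5.16 CPM in dEx1, 9.66, 10.7 and 7.34 CPM in FL and 9.03, 4.16 and 5.08 CPM in vector libraries of QGP-1, and at 1.51, 1.32 and 0.711 CPM in dEx1, 1.56, 1.80 and 0.804 CPM in FL and 0.590, 1.44 and 1.04 CPM in vector libraries of BON-1.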

How the data were processed

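RNA was measured in 27 libraries, 3 per group. Reads were trimmed with Trimmomatic, aligned with HISAT2 to hg19 and assembled with StringTie, per the submitters' processing notes, which name no versions; how StringTie output became counts, the annotation and any use of strand are not given in the sources used here. The deposited table holds estimated counts as whole numbers (expected counts), and in the low range 5 units are more frequent than any other value from 1 to 7, so 1 fragment was assumed to be worth 5 units. That assumption was used for the floor only. Filters and tests took the units as deposited, so a count there can stand for fewer fragments. The 23234 rows gave 23230 symbols after 4 identical duplicates were merged.

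Collagen genes were tested with edgeR 4.0.16 (R 4.3.3): filterByExpr, TMM scaling, quasi-likelihood F test with Benjamini-Hochberg adjustment over all genes tested, threshold 0.05. Constructs were compared within the 9 libraries of a line; lines, and construct effects between lines, in 1 model of all 27. CPM use the 27-library scaling, which differs within a line by at most 1.831% from the line's own. Positions come from the hg19 annotation. Alternatives included DESeq2 1.42.0, other filters and scalings, a replicate block and leaving out libraries. The fits were tested on simulated data first. Shared replicate numbers pair the libraries in the 3 BON-1 comparisons and in dEx1 against FL of QGP-1, where correlations of same-numbered deviations all exceeded 0.1; the labels do not say what a number marks. The text names collagen genes that passed a construct comparison, averaged 10 CPM or more in a line's vector libraries, had the 6 largest called changes in each direction between lines, or form chain pairs; genes with an unadjusted p under 0.05 or without overlap, and those described as low or filtered out, were added after their values were seen. The collagen genes, their classes and all other lists were chosen with earlier results of these data known.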

Additional observations from a re-analysis of the deposited data

Results flagged for a closer look

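COL5A3 separated in opposite directions in SK-N-SH and BON-1 in dEx1 against FL. Its log2 fold change of dEx1 over FL was lower in SK-N-SH than in BON-1 by a difference of -4.76 (SE 1.32, adjusted p = 0.0528 by edgeR's quasi-likelihood test over 16883 genes, unadjusted p = 0.00217), so the test of the difference missed the threshold with all libraries. All 3 dEx1 libraries lay below all 3 FL libraries in SK-N-SH and above them in BON-1, which is what brought the gene here. In SK-N-SH, dEx1 replicate 3, at 0.0818 CPM, lay under the floor of 0.172 CPM. This contrast was chosen after seeing the data, and 670 of 16883 genes were called in it. COL6A3 separated in opposite directions in the same lines, lower with dEx1 than with FL in SK-N-SH and higher in BON-1, with a difference of -0.92 (SE 0.70, adjusted p = 0.594 by edgeR), which did not pass. These fits included the libraries that stood apart. In refits added after seeing the data, COL5A3 had a difference of -4.76 without SK-N-SH vector replicate 3 (adjusted p = 0.0438) and of -4.76 without BON-1 vector replicate 1 (adjusted p = 0.0216), where 819 of 17258 and 876 of 17256 genes were called. COL6A3 was at -0.93 in both refits (adjusted p = 0.600 and 0.454). These vector libraries enter the contrast only through the shared fit, and the refits use the same dEx1 and FL libraries that brought COL5A3 here. The cause of neither pattern was tested.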

How the results depend on the processing

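Of the construct comparisons, the SK-N-SH counts depended most on the processing; the cause was not tested. The shares of all genes called moved as well and stand in brackets. For FL against vector edgeR called 0 collagen genes (1.74%). DESeq2 called 5 (8.12%), the replicate block 4 (5.3%), and leaving out all replicate 3 libraries of the line 6 (6.89%). Leaving out single libraries gave 0 to 1 (0.14% to 2.42%). For dEx1 against vector edgeR called 0 (4.47%). The same settings gave 3 (13.6%), 7 (15.1%), 12 (22.1%) and 0 to 7 (0.53% to 17%). For dEx1 against FL edgeR called 9 (22%). The same settings gave 15 (31%), 17 (32.8%), 18 (30.2%) and 0 to 13 (12.3% to 26.7%). The fit of all 27 libraries gave 1 (13.7%). A minimum mean of 2 CPM and no filter gave 6 each (28.3% and 16.1%). The SK-N-SH numbers share no stated pairing. Correlations of same-numbered libraries ran from 0.0478 to 0.406 (FL against vector), 0.0874 to 0.461 (dEx1 against vector) and 0.0971 to 0.326 (dEx1 against FL). The lowest of each missed the minimum of 0.1, that of dEx1 against FL narrowly. Whether the numbers pair these libraries is therefore not settled, and the block results are not taken as stronger evidence. DESeq2 called 1 gene each in BON-1 dEx1 against vector, QGP-1 FL against vector and QGP-1 dEx1 against vector. The shares of all genes were 0.235%, 0.773% and 0.407%. In the last, the 27-library fit called 1 too, beside 0.0178%. Leaving out any single library of BON-1 or QGP-1 gave 0 calls in each of their 6 comparisons. In the dEx1 effect of SK-N-SH against BON-1 (0) DESeq2 called 1, the replicate block within line 2, and leaving out single libraries 0 to 2; against QGP-1 leaving out single libraries gave 0 to 1. The replicate block moved no other count by over 1.5 times and changed no call where the numbers pair the libraries. Between lines, a minimum of 2 CPM gave 22, 19 and 14 calls in place of 31, 27 and 20, and leaving out single libraries 30 to 32, 26 to 28 and 18 to 20. The shares of all genes in refits of line comparisons and of contrasts between lines are not given here. No called gene changed direction in any setting run, and of their values under the alternatives 975 kept their side of the threshold and 84 missed it. Uncalled genes were followed only where their unadjusted p was under 0.05 in a construct comparison or a contrast between lines. Of these, 2 changed sign: COL24A1, BON-1 dEx1 against vector, became 0.10 without vector replicate 1 (leaving out single libraries, -2.77 to 0.10), and COL4A1, FL effect in SK-N-SH against FL effect in QGP-1, became 0.15 without QGP-1 FL replicate 3 (-4.09 to 0.15). The direction of other uncalled genes was not followed. Genes under about 0.2 CPM lie near the counting floor, where the sizes of differences were not resolved at this depth. Calls were made there too, such as COL3A1 in QGP-1 against BON-1 and COL4A6 in SK-N-SH against QGP-1 vector libraries, and are part of the counts.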
